A study of Mus musculus with 192 samples.

Results

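The genes described here encode 8 enzymes and helper proteins of eicosanoid and platelet-activating factor metabolism: Ptgs1, Ptgs2 and Ptges of prostaglandin synthesis, Alox5, Alox5ap, Ltc4s and Lta4h of leukotriene synthesis, and Pla2g7. They were taken by name from the 23481 gene rows of the count table, and all 8 were found there. Bone marrow-derived dendritic cells were grown with GM-CSF at 15 ng/mL from the marrow of female C57BL/6J mice aged 6 to 8 weeks and were exposed for 6 h to ligands of the receptors with which innate immune cells sense microbial molecules. The libraries form 64 groups of 3: the control group Ctrl, 7 single ligands, 21 pairs and 35 triplets of PAM, LPS (lipopolysaccharide), HMW, Zymosan (labelled as depleted), SeV, cGAMP (3',3'-cGAMP, a cyclic dinucleotide) and CpGB. The abbreviations are used as the labels give them, and ligand doses are not given in the sources used here. Nothing in the labels ties the 3 libraries of a group to separate mice or cultures, so the p-values below measure the spread between these libraries, which may be technical.

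Prostaglandins and leukotrienes are lipid mediators made from arachidonic acid, which phospholipases free from membranes. Cyclooxygenases turn arachidonic acid into prostaglandin H2, from which prostaglandin E synthase makes prostaglandin E2. Ptgs1 encodes the form that many cells express at rest (COX-1) and Ptgs2 the form known as inducible by inflammatory stimuli (COX-2). In the other branch, 5-lipoxygenase (Alox5) works with its activating protein (Alox5ap) to make leukotriene A4, which leukotriene A4 hydrolase (Lta4h) turns into leukotriene B4 and leukotriene C4 synthase (Ltc4s) into leukotriene C4. Pla2g7 encodes a secreted enzyme that hydrolyses platelet-activating factor.

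Expression was measured as counts of unique molecular identifiers (UMIs), each of which marks 1 cDNA molecule. Libraries held 46564 to 610234 UMIs, with a median of 171616.5, and the 3 Ctrl libraries were among the shallow ones at 61823 to 89530. Of the 8 genes, 6 passed the filter on low counts and were tested among 4720 genes. Alox5, with 62 UMIs over all libraries, and Ltc4s, with 305, did not. Levels are given as CPM (UMIs per 1000000, after scaling of library sizes) as mean ± SD, n = 3. Differences are log2 fold changes from 1 edgeR quasi-likelihood fit over all libraries. Their standard error (SE) was derived as the size of the difference divided by the square root of its F statistic. This form is unstable for differences near 0. A gene was called against Ctrl at a Benjamini-Hochberg adjusted p under 0.05 with a log2 difference of at least 1 in size. Cell types were checked by marker genes. All but Cd209a of 9 dendritic and antigen-presentation genes were detected in Ctrl, where their summed level was 6174 to 6662 CPM, and group means rose to 8910 CPM. The 8 macrophage and monocyte genes, of which 7 were listed, summed to 11537 to 13048 CPM in Ctrl and to 6854 CPM in the lowest group. Lyz2 made up 76.6% of that list's UMIs, and not all of its genes were highest in Ctrl: Fcgr1 had a pooled level of 62.4 CPM in Ctrl and 311.5 CPM over the other groups, and Mertk was at 0 in Ctrl and at 7.14 CPM over the others. Neither these nor the markers below were tested for their part in the results. In such bulk samples, fewer cells of a type and less RNA per cell cannot be told apart.

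Ptgs1, Ptgs2 and Ptges lead the account below, and the stretches before their RefSeq transcription starts (GRCm38.p6) are shown because these genes moved together or in opposite directions. Capitals mark matches to 7 motifs searched on both strands.

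Ptgs2 promoter, chr1:150099911-150100030, plus strand: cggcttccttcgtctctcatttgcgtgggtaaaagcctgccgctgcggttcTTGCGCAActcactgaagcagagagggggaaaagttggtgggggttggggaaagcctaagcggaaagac
Ptgs2 after the start, chr1:150100037-150100054, plus strand: accactACGTCACGTGga
Ptges promoter, chr2:30903298-30903417, minus strand: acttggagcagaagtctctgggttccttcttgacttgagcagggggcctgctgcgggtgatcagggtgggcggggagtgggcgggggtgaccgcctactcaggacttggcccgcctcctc
Ptgs1 promoter, chr2:36230306-36230425, plus strand: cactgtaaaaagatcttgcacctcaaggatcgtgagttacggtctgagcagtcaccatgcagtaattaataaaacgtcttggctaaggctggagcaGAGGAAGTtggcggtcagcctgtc

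The windows searched ran from 250 bases before to 50 bases after each start, and 7 of the 8 genes had a window. For Ptges the RefSeq start, chr2:30903297, lies inside the GENCODE M21 gene span, chr2:30889471-30929863, so the 2 annotations place its start differently. Ptgs2 held a C/EBP match (TTGCNNAA) at 69 to 62 bases before the start and, just after it, a CRE match (TGACGT, on the minus strand) that overlaps an E-box (CACGTG). These motifs occur in 10.8%, 7.51% and 7.15% of all 32851 windows of that length. Ptgs1 held a PU.1 match (GAGGAAGT), found in 3.2% of windows, at 24 to 17 bases before the start. No match to the NF-kB consensus, AP-1 (TGANTCA) or the ISRE consensus stood in any of the 7 windows, and these occur in 4.51%, 7.81% and 3.44% of windows. Sequence outside the windows was not searched, so sites farther from the starts would be missed. A match describes letters only and was not set against binding data.

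Over the 63 conditions, the cyclooxygenase genes moved in opposite directions: Ptgs2 was called higher than Ctrl in 57 and Ptgs1 lower in 61. Ptges was called higher in 50, Alox5ap and Lta4h lower in 19 each, and Pla2g7 in none. No member was called in the other direction. Over all genes and conditions, 14.3% of tests were called higher and 9.03% lower, so that 61.2% of calls were higher. That split moved with the scaling, to 50.7% with RLE size factors, 38.1% with library size alone and 72.4% without the filter on low counts, where the median difference of all genes shifted by -0.16, -0.36 and 0.24 log2 units. The 63 comparisons share the same 3 Ctrl libraries and are not independent. All 3 calls, Ptgs1 lower with Ptgs2 and Ptges higher, came together in 50 conditions. The map of changes by condition shows these members as rows.

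**Figure D1:**
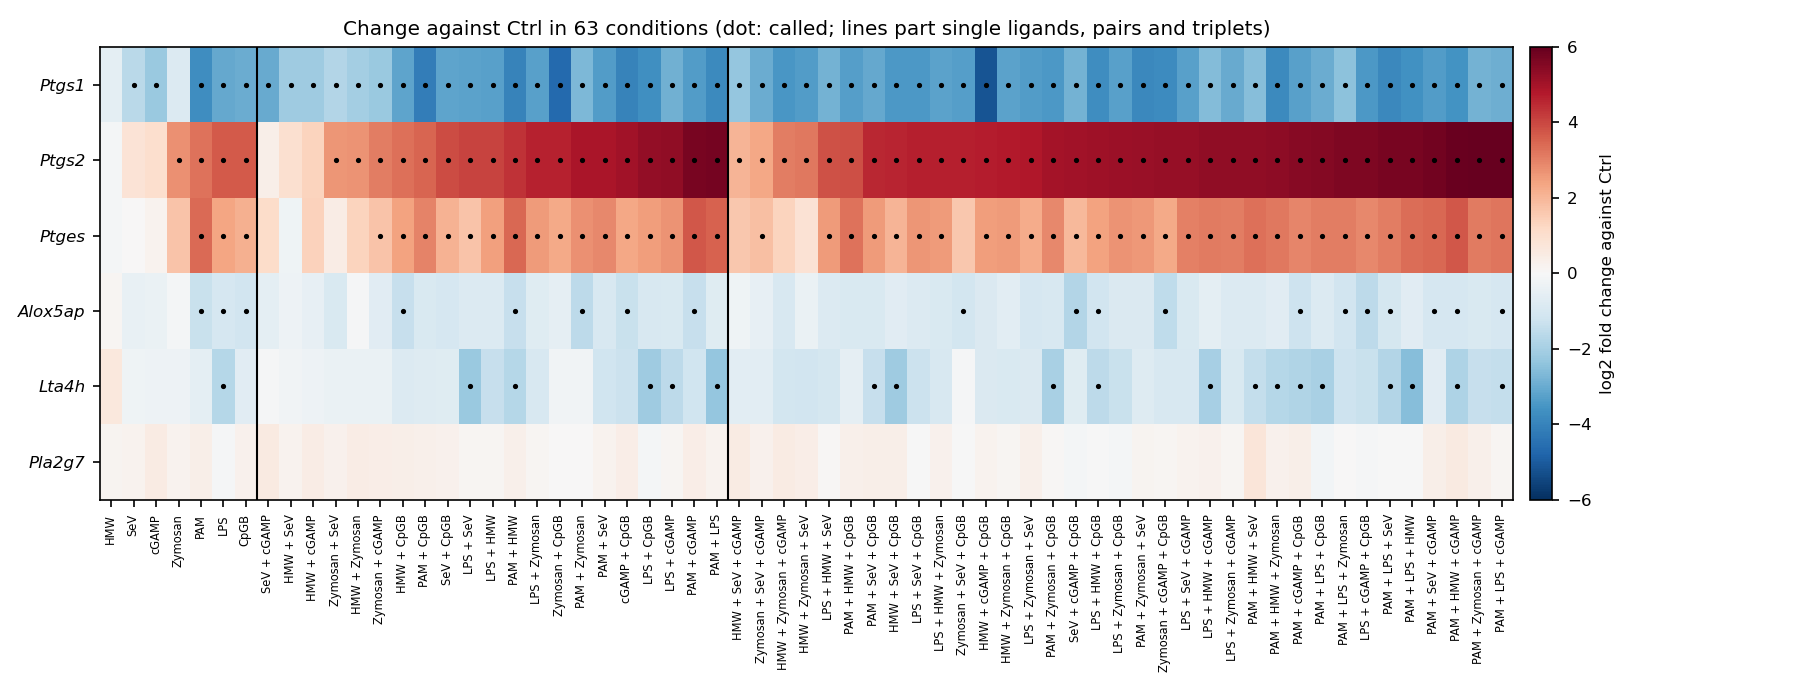
Log2 fold change of the 6 tested members (rows) against Ctrl in 63 conditions (columns, ordered by Ptgs2 within single ligands, pairs and triplets, which black lines separate). Red is higher and blue lower, and a dot marks a call; Ptgs1 is blue and Ptgs2 red through nearly all columns, with log2 values down to -5.20 and up to 6.15.

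Ptgs2 (chr1:150100031-150108227, plus strand, GENCODE M21 on GRCm38), the inducible cyclooxygenase, was almost absent from control cells, with 1, 2 and 2 UMIs in the Ctrl libraries (13.9, 24.9 and 19.2 CPM). The libraries with CpGB held 184, 209 and 346 CPM, those with LPS 223, 233 and 295, those with PAM 157, 216 and 194, and those with Zymosan 120, 115 and 154. Every library of these 4 groups stood above every Ctrl library. The log2 rise was 3.68 ± 0.54 (SE) with CpGB, 3.66 ± 0.54 with LPS, 3.25 ± 0.57 with PAM and 2.72 ± 0.62 with Zymosan (adjusted p = 2.4e-09, 1.78e-09, 1.04e-06 and 0.000719, edgeR quasi-likelihood test). The cGAMP libraries held 36.7, 46.7 and 36.8 CPM, all above Ctrl, yet the difference was not called (log2 1.03 ± 0.81, adjusted p = 0.39). HMW (33.3, 22.4 and 4.65 CPM) and SeV (9.56, 38.3 and 46.9 CPM) overlapped with Ctrl. With 5 UMIs in the whole control group, the control level carries an exact 95% Poisson interval of 6.33 to 45.5 CPM, counting error only, so the folds against Ctrl are imprecise while the order of the stimulated groups does not rest on it.

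Many combinations, but not all, had more Ptgs2 than any single ligand: 13 of 21 pair means and 31 of 35 triplet means lay above the highest single-ligand mean. Group means ran from 20.1 to 250 CPM over the 7 single ligands, from 28.8 to 1069 over the 21 pairs and from 91.4 to 1441 over the 35 triplets. The highest groups were PAM_LPS_cGAMP (1566, 1387 and 1369 CPM), PAM_Zymosan_cGAMP (1341, 1268 and 1386 CPM) and PAM_HMW_cGAMP (1285, 1130 and 1282 CPM), and the libraries of these 3 overlapped with one another in part. PAM_LPS_cGAMP stood 6.15 ± 0.39 log2 units above Ctrl (adjusted p = 8.71e-36, edgeR). The lowest 3 groups were Ctrl, HMW and SeV_cGAMP (53.7, 15.7 and 16.9 CPM). In the order of all 64 groups, no 2 neighbours had libraries that did not overlap.

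Ptgs2 group means were also read by the presence of PAM, LPS or CpGB, a grouping chosen after the values were seen. The 15 groups with none of these ligands had means of 19.3 to 183 CPM, and the 33 groups with exactly 1 of them 189 to 1332 CPM, and libraries of the groups nearest to that border overlapped. Ptgs2 was called in all 49 conditions that held PAM, LPS or CpGB. It was called in 8 of the other 14, namely the 7 that held Zymosan and HMW_SeV_cGAMP.

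Ptges (chr2:30889471-30929863, minus strand), the inducible microsomal prostaglandin E synthase, was called higher with the same single ligands as Ptgs2 except Zymosan, and its highest single-ligand level was with PAM. Ctrl libraries held 13.9, 12.5 and 28.8 CPM, from 5 UMIs. PAM alone gave 190, 241 and 194 CPM, above the LPS libraries (89.3, 116 and 98.4 CPM) and the CpGB libraries (97.0, 81.7 and 92.2 CPM) in each case. All 3 groups were called higher, by 3.38 ± 0.49, 2.35 ± 0.57 and 2.16 ± 0.59 log2 units (adjusted p = 2.75e-09, 0.000393 and 0.00257, edgeR). Zymosan libraries (46.0, 109 and 42.0 CPM) lay above Ctrl without a call (log2 1.70 ± 0.63, adjusted p = 0.0726). HMW, SeV and cGAMP overlapped with Ctrl at means of 16.4, 20.9 and 22.2 CPM. The highest groups all held PAM: PAM_HMW_cGAMP at 271 ± 19.0, PAM_cGAMP at 265 ± 40.7 and PAM_LPS at 226 ± 33.0 CPM. The lowest were HMW_SeV at 15.1 ± 6.16, HMW and Ctrl. Ptges was called in 48 of the 49 conditions with PAM, LPS or CpGB, Zymosan_SeV_CpGB being the exception, and in 2 of the other 14. Over the 64 groups, Ptges and Ptgs2 had a Pearson r of 0.86 on log2 group means, a description over groups that share ligands and libraries.

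**Figure D2:**
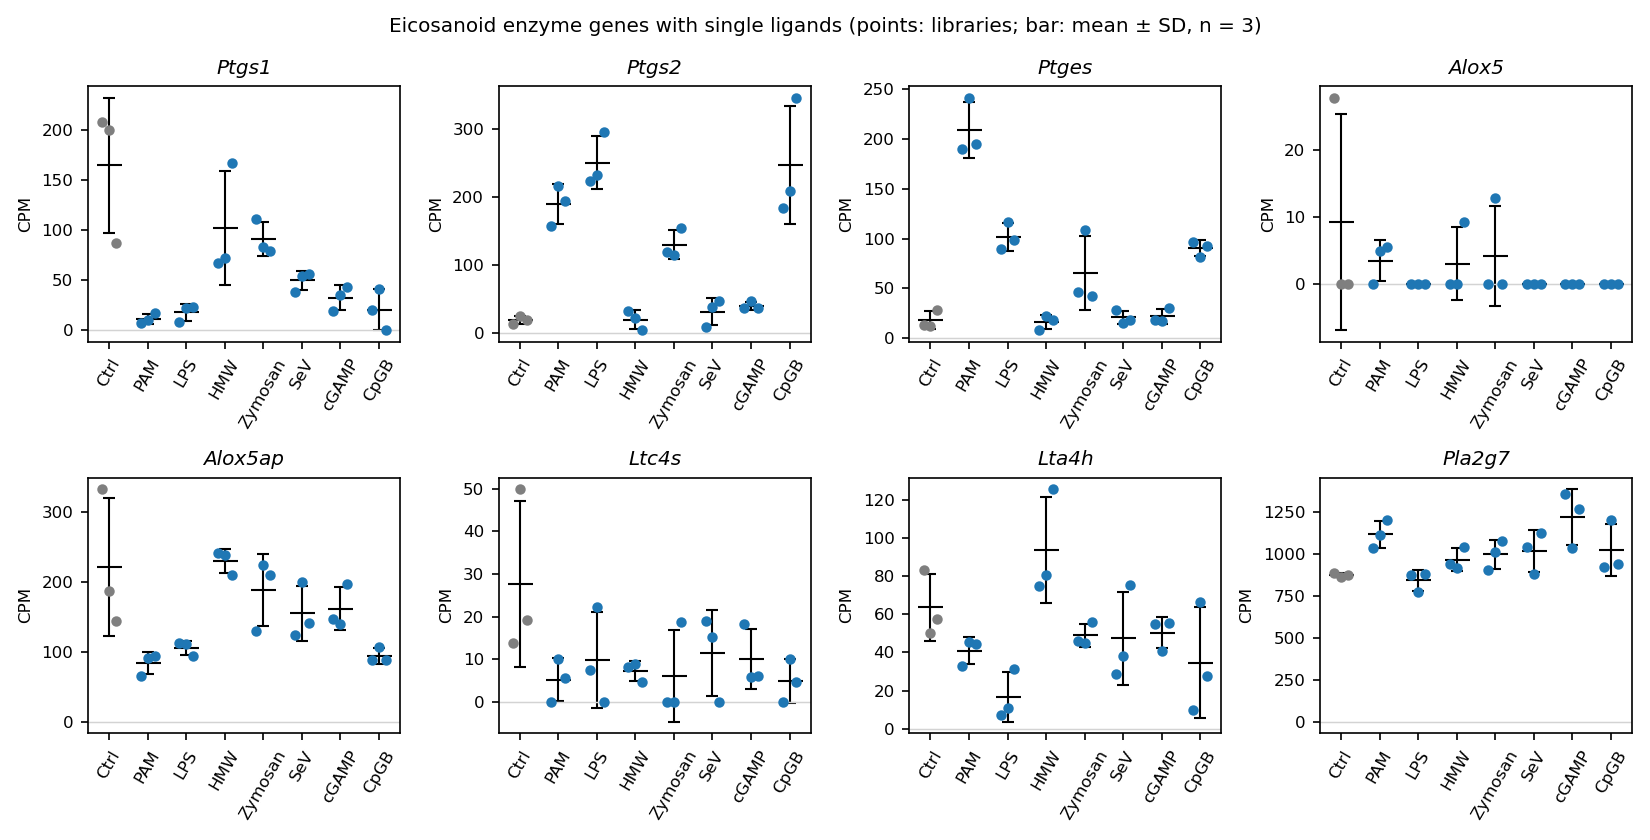
CPM of the 8 members in Ctrl and with each single ligand; points are libraries, bars the mean ± SD, n = 3, and each panel has its own axis. Ptgs2 and Ptges rise with PAM, LPS and CpGB, Ptgs1 falls with these and with SeV and cGAMP, Pla2g7 changes little beside its level in Ctrl, and Alox5 and Ltc4s stay at a few UMIs.

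Ptgs1 (chr2:36230426-36252272, plus strand), the resting-state cyclooxygenase, was at its highest in control cells, at 208, 200 and 86.4 CPM. PAM libraries held 6.56, 10.1 and 16.7 CPM and LPS libraries 7.44, 22.2 and 22.4 CPM, a fall of 3.73 ± 0.60 and 3.05 ± 0.54 log2 units (adjusted p = 6.46e-08 and 7.8e-07, edgeR). CpGB, at 19.4, 40.8 and 0 CPM, fell by 2.98 ± 0.55 log2 units (adjusted p = 2.35e-06). Ptgs1 also fell with 2 ligands for which Ptgs2 was not called, by 2.21 ± 0.51 log2 units with cGAMP (18.3, 35.1 and 43.0 CPM, adjusted p = 0.000255) and by 1.63 ± 0.47 with SeV (38.2, 53.7 and 56.3 CPM, adjusted p = 0.00635). The SeV call was lost without Ctrl replicate 1 or 2. HMW (66.5, 71.7 and 167 CPM) and Zymosan (110, 83.2 and 79.3 CPM) overlapped with Ctrl and were the only conditions without a call. The lowest groups were HMW_cGAMP_CpGB, Zymosan_CpGB and PAM_CpGB, with 2, 3 and 3 UMIs over their libraries, so their order is not resolved. Megakaryocytes and platelets, for which Ptgs1 is well known, were checked by 4 markers: Itga2b and Gp9 were at 0 in Ctrl, Pf4 made up 96.6% of the list's UMIs, and the summed level was 346 to 499 CPM in Ctrl libraries against 201 to 509 CPM in the other group means. The median group mean of that list was 277 CPM, below the Ctrl mean of 416 CPM and below each Ctrl library, while PAM had the highest. The part of these markers in the Ptgs1 result was not tested.

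Counted within a library, which does not depend on how libraries are scaled, the Ptgs2 share of all Ptgs1 and Ptgs2 UMIs shifted from a small part to nearly all. In Ctrl 5 of 45 cyclooxygenase UMIs were Ptgs2, a pooled share of 11.1% (exact 95% binomial interval 3.71 to 24.1). With HMW it was 14.3%, with SeV 41.0%, with cGAMP 54.5% and with Zymosan 60.4%. CpGB, LPS and PAM gave 93.1%, 93.2% and 94.4%. The share was over 50% in 61 of 64 groups and over 90% in 51, and reached 99.3% in HMW_cGAMP_CpGB. The counts are not corrected for transcript length, so the share follows a ratio across conditions and does not rank the 2 mRNAs by abundance.

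**Figure D3:**
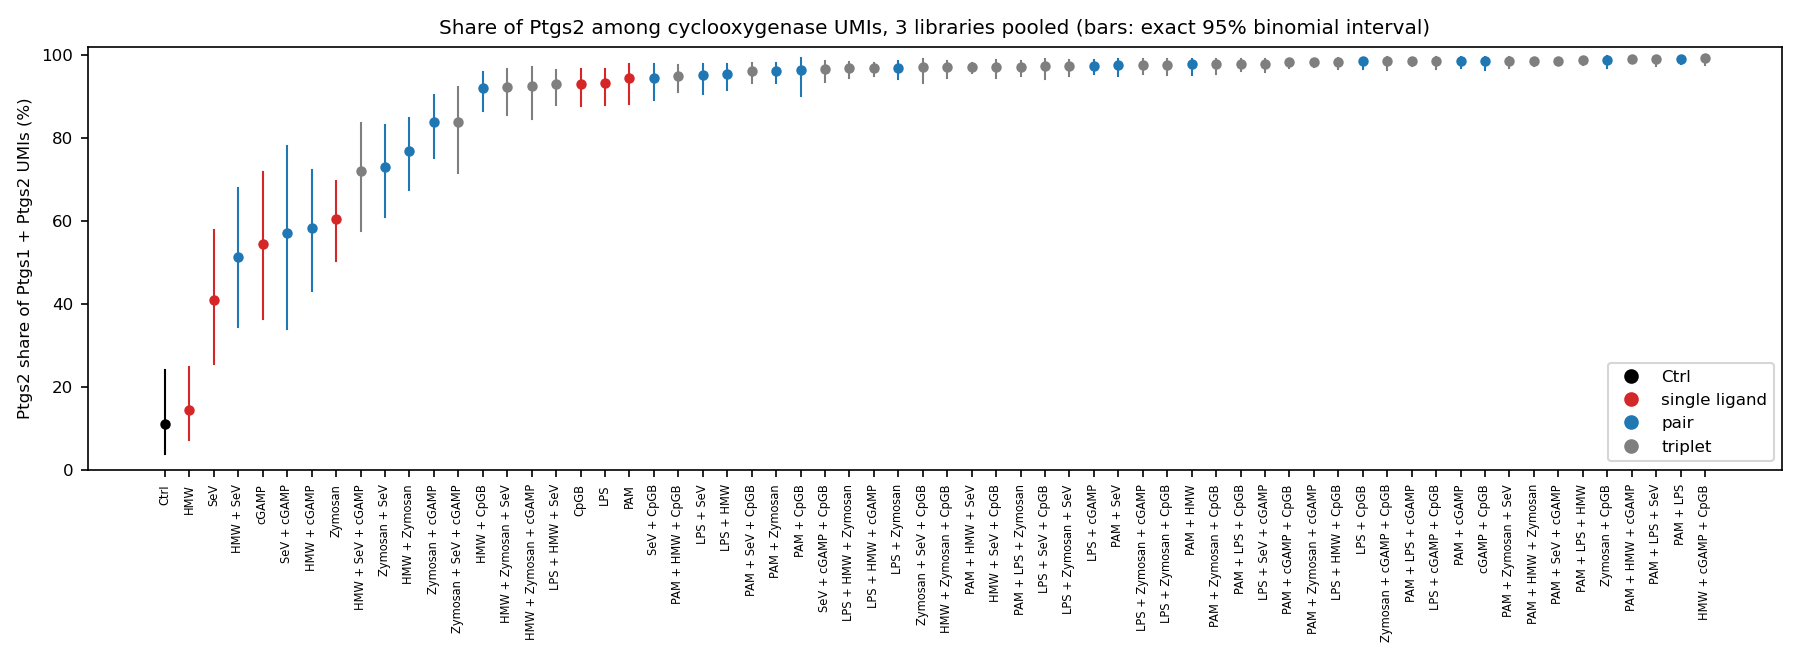
Ptgs2 as a share of Ptgs1 plus Ptgs2 UMIs (%, 3 libraries pooled) in the 64 groups, sorted, with exact 95% binomial intervals that cover counting error only; colours mark Ctrl, single ligands, pairs and triplets. The share climbs from 11.1% in Ctrl to over 90% in 51 groups.

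In the leukotriene branch, 2 of the 4 genes could be tested, and Alox5ap and Lta4h were each called lower in 19 of 63 conditions and higher in none. Alox5, 5-lipoxygenase itself, was near the detection limit: 2 UMIs in 1 Ctrl library and 0 in the other two, and no UMI in 26 of 64 groups. A count of 0 in a group still allows 3 UMIs, which is 5.57 CPM for LPS and 6.77 CPM for cGAMP, so a fall of Alox5 was not detectable at this depth. Its partner Alox5ap (chr5:149264767-149288153, plus strand) was well detected, with 332, 187 and 144 CPM in Ctrl. It fell with PAM (65.6, 90.5 and 94.5 CPM, log2 -1.32 ± 0.34, adjusted p = 0.00133), CpGB (87.3, 107 and 87.6 CPM, log2 -1.16 ± 0.33, adjusted p = 0.00457) and LPS (112, 111 and 94.0 CPM, log2 -1.02 ± 0.32, adjusted p = 0.00878, edgeR). All libraries of these 3 groups lay below all of Ctrl. HMW libraries (241, 238 and 209 CPM) gave the highest group mean and overlapped with Ctrl. All 19 calls were in conditions with PAM, LPS or CpGB. Without the fold threshold Alox5ap was lower in 44 of 63 conditions, so most of its differences lay under the fold threshold. These counts rest on the Ctrl libraries, of which replicate 1 was the highest for Alox5ap: without it 4 conditions were called and none of the 3 single ligands was, and without Ctrl replicate 3 the count was 43. DESeq2 called 42. The lowest groups were SeV_cGAMP_CpGB at 60.5 ± 27.5, PAM_Zymosan at 71.0 ± 34.2 and Zymosan_cGAMP_CpGB at 75.1 ± 35.8 CPM.

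Lta4h (chr10:93453411-93484875, plus strand), the leukotriene B4-forming hydrolase, held 83.1, 49.9 and 57.6 CPM in Ctrl. Among single ligands it was called with LPS alone, where libraries held 7.44, 11.1 and 31.3 CPM (log2 -1.72 ± 0.60, adjusted p = 0.0189, edgeR). Its lowest groups were PAM_LPS_HMW (0, 26.2 and 5.37 CPM), PAM_LPS (0, 21.4 and 10.6 CPM) and LPS_SeV (8.38, 18.9 and 10.1 CPM), whose log2 differences from Ctrl were -2.53 ± 0.69, -2.31 ± 0.64 and -2.25 ± 0.67. The highest was HMW at 74.8, 80.7 and 125 CPM, which overlapped with Ctrl. LPS was present in 11 of its 19 calls and in 22 of all 63 conditions. PAM_HMW, PAM_HMW_cGAMP and PAM_cGAMP_CpGB were among the calls without LPS. The count of 19 became 6 without Ctrl replicate 1 and 10 without Ctrl replicate 3. The call with LPS alone was lost without either, and without LPS replicate 1 or 2. Ltc4s, leukotriene C4 synthase, had 7 UMIs in Ctrl (13.9, 49.9 and 19.2 CPM) and 3 to 5 in each single-ligand group. Fitted without the filter on low counts, Ltc4s was called lower in 1 of 63 conditions, with an unadjusted p under 0.05 in 12, and Alox5 in 0, with 0 at an unadjusted p under 0.05. Over all 14862 genes and 63 conditions, that fit gave 18274 lower calls. The highest Ltc4s group was PAM_Zymosan_SeV at 29.3 ± 9.64 CPM and in HMW_Zymosan_cGAMP it had no UMI.

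Mast cells, basophils, eosinophils and neutrophils are other known sources of leukotriene enzymes. Of 9 mast cell and basophil markers, 8 were at 0 in Ctrl, Kit being the exception. The summed level was 0 to 37.4 CPM in Ctrl libraries and 0 to 22.1 CPM over group means. Ctrl was the highest group for this list, and the median group mean was 6.87 CPM. The 10 neutrophil markers, 9 of them listed, summed to 662 to 942 CPM in Ctrl and to 584 to 1040 CPM over groups, with Elane and Mpo at 0 in Ctrl. The 4 eosinophil markers, 3 listed, summed to 13.9 to 99.8 CPM in Ctrl and to 27.8 to 84.6 CPM over groups, with Prg3 at 0 in Ctrl. T and natural killer cell, B cell and erythroid markers had no UMI in Ctrl.

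Pla2g7 (chr17:43568098-43612201, plus strand), the platelet-activating factor hydrolase, was the steadiest of the tested members. Ctrl libraries held 886, 861 and 874 CPM, and all 64 group means lay between 789 CPM (PAM_LPS_CpGB) and 1440 CPM (PAM_HMW_SeV: 1414, 1096 and 1812 CPM). No condition was called with edgeR, although 15 were higher at an adjusted p under 0.05 without the fold threshold and 23 of 63 had an unadjusted p under 0.05. DESeq2 called 0. Of these 15, 11 held cGAMP and none LPS. With cGAMP alone the rise was 0.47 ± 0.15 log2 units (1357, 1034 and 1264 CPM, adjusted p = 0.0141). The lowest groups after PAM_LPS_CpGB were LPS_CpGB and LPS_Zymosan_CpGB at 800 ± 86.1 and 801 ± 64.1 CPM. An antisense gene, 1700071M16Rik, overlaps Pla2g7. It had 22 UMIs over all libraries against 33692 for Pla2g7, and whether counting used strand is not given in the sources used here.

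Taking each single ligand in turn, LPS gave calls in 5 of the 6 tested members (2 higher, 3 lower, against 14.6% higher and 9.6% lower over all tested genes). PAM gave 4 calls (2 higher and 2 lower, against 8.01% and 5.89%) and CpGB 4 (2 higher and 2 lower, against 10.8% and 6.27%). Zymosan gave 1 call, Ptgs2 higher (4.43% of all genes were higher and 1.82% lower). SeV and cGAMP gave 1 call each, Ptgs1 lower (5.13% and 5.91% were lower). HMW gave no call by edgeR, none with an unadjusted p under 0.05 and 0 by DESeq2, where 0.953% of all genes were called higher and 0.0212% lower.

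Adding a ligand to the 22 backgrounds without it (Ctrl, the other single ligands and their pairs) gave a mean effect that rests mostly on stimulated libraries. It was called at an adjusted p under 0.05 with a mean log2 difference of at least 0.5 in size. Ptgs2 rose on adding PAM by 2.29 ± 0.06, LPS by 2.19 ± 0.06, CpGB by 1.69 ± 0.06, Zymosan by 1.16 ± 0.07 and cGAMP by 0.98 ± 0.08 log2 units (6.53%, 14.9%, 6.12%, 8.58% and 14.3% of all tested genes were called higher). It was higher in 22 of 22 backgrounds with LPS, 21 with PAM, 20 each with Zymosan and cGAMP, and 18 with CpGB. These SEs are of the mean and do not give the spread over backgrounds. On single backgrounds, differences in log2 of mean CPM plus 2 ran from -0.10 to 5.18 with PAM. They ran from 0.43 to 4.61 with LPS and from -0.51 to 4.41 with CpGB. HMW and SeV added 0.23 ± 0.08 and 0.31 ± 0.08, below the threshold (0.297% and 7.9% of tested genes were called higher). Ptges rose with PAM by 1.65 ± 0.07 (22 of 22 backgrounds), with LPS by 1.04 ± 0.08 and with CpGB by 0.73 ± 0.08. The values for Ptges with cGAMP, Zymosan, HMW and SeV were 0.48, 0.26, 0.18 and -0.20, none of them called.

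Among the members that fell, adding PAM, LPS and CpGB lowered Ptgs1 by a mean of -0.83 ± 0.17, -0.61 ± 0.18 and -1.02 ± 0.17 log2 units (5.89%, 11% and 5.06% of tested genes were called lower). Differences on single backgrounds were taken between log2 values of group mean CPM plus 2, not from the edgeR fit. By that measure the largest Ptgs1 difference for PAM and LPS was on the Ctrl background, at -3.67 and -3.11. The edgeR mean over the other 21 backgrounds was -0.69 and -0.49, which ended the LPS call. That call was also lost without replicate 3 of every group. Lta4h was lowered by LPS by -1.0 ± 0.12 log2 units, with a lower mean in 22 of 22 backgrounds, and by PAM by -0.66 ± 0.13, lower in 16. Adding HMW, Zymosan, SeV or cGAMP lowered no member past the threshold, where 0.0847%, 3.81%, 2.58% and 10.3% of tested genes were called lower. No ligand gave a call for Alox5ap or Pla2g7 under the fold threshold. For Alox5ap the mean was -0.35 ± 0.07 with PAM and -0.34 ± 0.07 with CpGB (adjusted p = 2.75e-06 and 1.67e-05, edgeR), and for Pla2g7 -0.22 ± 0.03 with LPS (adjusted p = 3.59e-11), lower in 20 of 22 backgrounds.

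**Figure D4:**
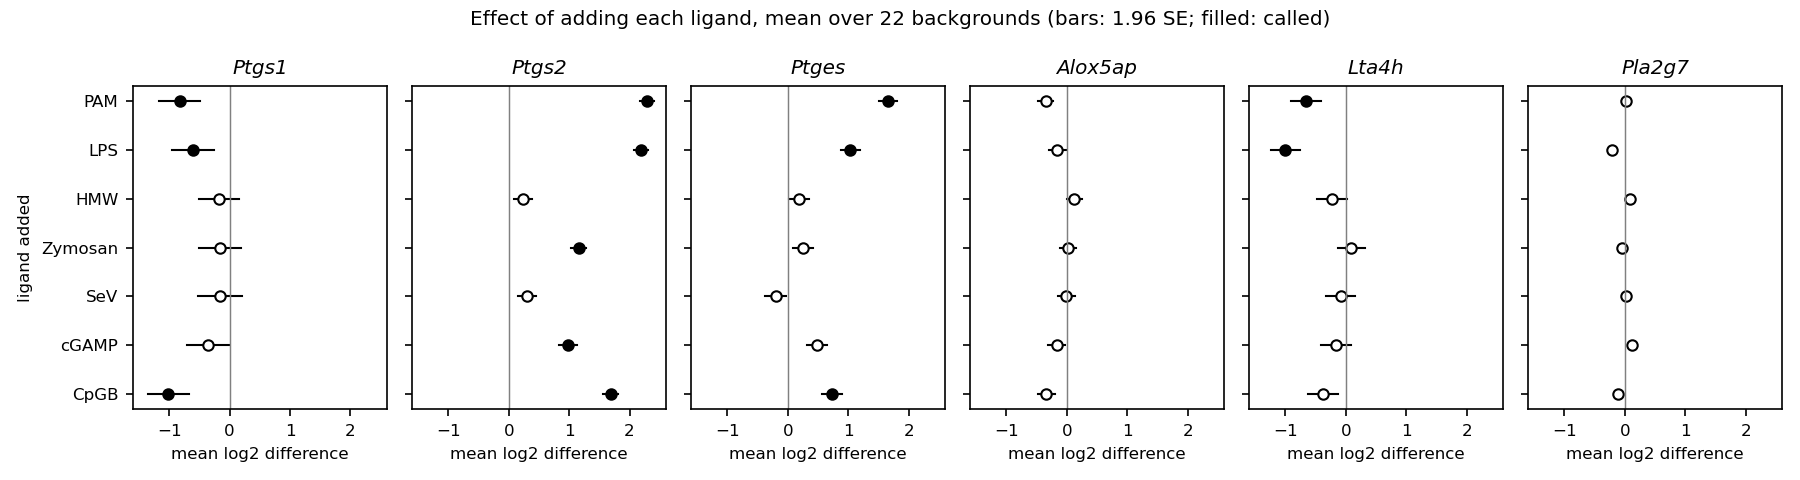
Mean log2 difference on adding each of 7 ligands (rows) to the 22 backgrounds without it, for the 6 tested members; bars are 95% intervals from the SE and filled points mark calls. PAM and LPS give the largest means for Ptgs2 (2.29 and 2.19), and LPS the lowest for Lta4h (-1.0).

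CpGB added less Ptgs2 where PAM was present, in values chosen after they were seen and not tested apart from the pair interactions below. On the 16 backgrounds without PAM, CpGB raised mean Ptgs2 in 16. The differences, in log2 of mean CPM plus 2, ran from 0.27 to 4.41 with a median of 2.15. On the 6 backgrounds with PAM the differences ran from -0.51 to 0.28 with a median of -0.21. For Ptges the corresponding medians were 0.96 and -0.37, and 5 of the 6 backgrounds with PAM were lower with CpGB. The pattern was not particular to PAM. With LPS in the background the Ptgs2 median on adding CpGB was 0.58, against 2.15 without LPS. With HMW, Zymosan, SeV or cGAMP present it was instead higher than without them, at 2.61, 2.00, 2.65 and 2.72. On adding PAM the Ptgs2 median was 0.41 with CpGB present and 2.82 without.

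A pair interaction sets the log2 change of the pair from Ctrl against the sum of the log2 changes of its 2 ligands alone, and is 0 where the pair equals that sum. Of 126 member and pair tests, 6 were called negative and 2 positive at an adjusted p under 0.05, against 3.5% and 1.08% over all genes and pairs, so the shares among members were close to those of all genes. Ptgs2 had a negative interaction of PAM with CpGB (-3.43 ± 0.65, adjusted p = 1.84e-05), where the pair at 258, 193 and 240 CPM was within the range of PAM and CpGB alone, and of LPS with CpGB (-2.07 ± 0.67, adjusted p = 0.0222), where the pair at 818, 754 and 766 CPM was above both but below the sum of log2 effects. Ptges had negative interactions of PAM with CpGB (-2.55 ± 0.65), Zymosan (-2.34 ± 0.68) and LPS (-2.22 ± 0.63), and of LPS with CpGB (-2.01 ± 0.69). Mean Ptges levels in these pairs were 161, 137, 226 and 113 CPM, against 209 CPM with PAM alone and 101 CPM with LPS alone. Alox5ap had positive interactions of PAM with LPS (1.61 ± 0.45) and with CpGB (1.56 ± 0.49): levels of 123 and 111 CPM in the pairs lay close to those of the single ligands, where the log2 falls alone would have added up to less. Each interaction includes the Ctrl libraries, with 5 UMIs each for Ptgs2 and Ptges. The Ptgs2 interaction of PAM with CpGB was called whichever replicate number was left out of all groups. The Ptgs2 interaction of LPS with CpGB was lost without replicate 3, both of Alox5ap without replicate 1 or 2, that of Ptges for LPS with CpGB without any of the 3, and the other Ptges interactions without replicate 2.

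Set against its single ligands without Ctrl, Ptgs2 was called above both, by at least 1 log2 unit over the higher at an adjusted p under 0.05, in 8 of 21 pairs, and no other member was called above or below both in any pair (0.336% of all gene and pair tests were above both and 0.0414% below). The largest step was PAM with cGAMP: 189 CPM with PAM, 40.1 with cGAMP and 1218, 909 and 1080 in the pair, which was 2.47 log2 units over PAM (adjusted p = 2.31e-20). PAM_LPS, at a mean of 1066 CPM, was 2.07 over LPS (adjusted p = 6.4e-17). LPS_cGAMP, at 805, 810 and 799 CPM, was 1.66 over LPS, and PAM_SeV, at 489, 687 and 610 CPM, 1.65 over PAM (adjusted p = 2.81e-10 and 1.19e-08). The other pairs called were PAM_Zymosan (1.65), LPS_CpGB (1.59), cGAMP_CpGB (1.36) and PAM_HMW (1.09, a call lost with library size alone or after thinning), and without the fold threshold LPS_Zymosan and Zymosan_CpGB joined them. Among the values of other members without a call, Ptges in HMW_cGAMP lay over 1 log2 unit above both single ligands (1.19), and Ptgs1 in Zymosan_CpGB (-1.68), HMW_Zymosan (-1.19) and cGAMP_CpGB (-1.04) and Lta4h in PAM_HMW (-1.12) lay over 1 below both, with adjusted p of 0.502 to 1. Of these, Ptges in HMW_cGAMP had all libraries above and Ptgs1 in HMW_Zymosan all below those of both ligands, and all libraries were also above for Ptges in LPS_cGAMP (0.36) and Pla2g7 in HMW_Zymosan (0.26). Thus SeV, cGAMP and HMW, which were not called for Ptgs2 alone, each stood in at least 1 pair above both single ligands.

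**Figure D5:**
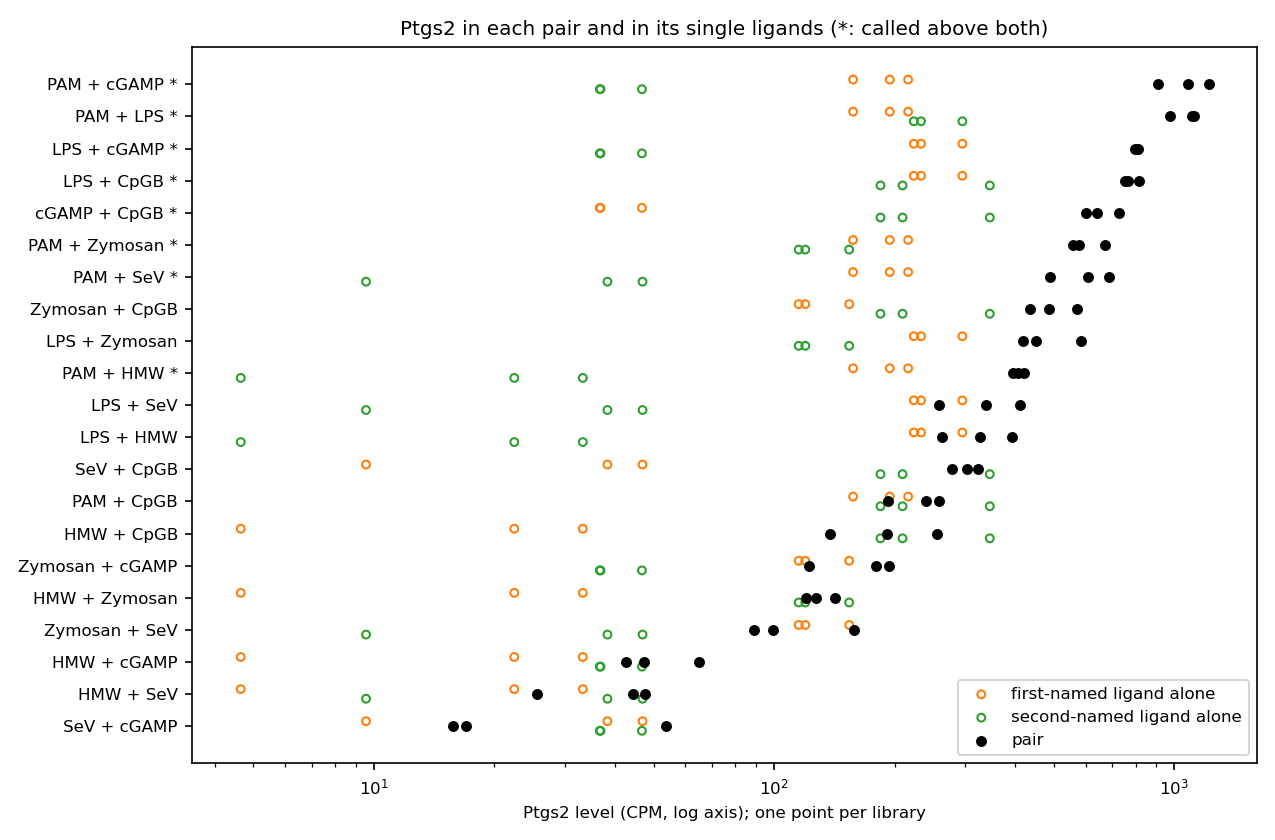
Ptgs2 level (CPM, log axis) in each of 21 pairs (filled points, 1 per library) and in both single ligands (open points); a star marks pairs called above both. The pairs PAM + cGAMP and PAM + LPS lie between 909 and 1218 CPM, and PAM + CpGB lies within the range of its single ligands.

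Triplets added no further call. Of 210 three-way interactions (what is left of the triplet once the log2 effects of its ligands and of its pairs are taken off), edgeR called none, with an unadjusted p under 0.05 in 11 and a lowest adjusted p of 0.142; over all genes 0.13% were negative and 0.803% positive. No member was called above or below all 3 pairs of a triplet by the rule of 1 log2 unit and an adjusted p under 0.05 (0.0109% above and 0% below over all genes), and the lowest adjusted p was 0.382, for Pla2g7. Without a call, 5 values lay over 1 log2 unit below all 3 pairs: Ptgs1 in HMW_Zymosan_cGAMP (-1.27), HMW_Zymosan_SeV (-1.24) and HMW_cGAMP_CpGB (-1.18), and Lta4h in HMW_SeV_CpGB (-1.29) and PAM_Zymosan_CpGB (-1.13), all at an adjusted p of 1. All Ptgs2 libraries stood above those of the 3 pairs in 3 triplets and all Ptges libraries in 1, while all Lta4h libraries stood below them in 2 and all Pla2g7 libraries in 1. The highest triplet, PAM_LPS_cGAMP at 1441 CPM, compared with 1069 CPM in PAM_cGAMP and 1066 CPM in PAM_LPS.

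The wider pathway was read from 77 genes in 9 lists, of which 76 were in the table and 27 were tested. Of these, 11 were called higher and 15 lower in at least 1 condition, where 33.8% and 34.9% of all tested genes were. In over 31 of the 63 conditions 4 of the 27 were higher and 6 lower, against 14.2% and 7.5% of all tested genes. The share higher was thus close to that of all tested genes. The 4 genes called in the most conditions in each direction were picked for description. Of the tested arachidonate release genes not picked, Mgll was lower in 17 conditions and higher in 4, and Abhd12 was lower in 18. Among genes of arachidonate release, Pla2g4a, the cytosolic phospholipase A2 that frees arachidonic acid, was called higher in 61 of 63 conditions. It rose from 6.40 ± 11.1 CPM in Ctrl to 90.5 ± 30.6 with LPS (log2 3.43, adjusted p = 1.2e-05, edgeR) and to 112 CPM in PAM_LPS. Only 1 Ctrl library held any Pla2g4a UMI, 2 in all, so the pooled ratio of LPS to Ctrl, 11.7, carries an exact 95% interval of 3.07 to 99.1, counting error only. Pla2g16 had 4 UMIs in 1 Ctrl library and Abhd16a 5 in 2. Pla2g16 and Abhd16a were called higher in 53 and 52 conditions, and Pla2g16 stood at 175 ± 54.6 CPM with LPS and 28.9 ± 18.6 with PAM. Daglb, a diacylglycerol lipase, was lower in 62 conditions (Ctrl 175 ± 31.5 CPM, PAM 12.3 ± 12.1 CPM), and Pla2g15, a lysosomal phospholipase, in 55. Acsl1, an acyl-CoA synthetase that activates long-chain fatty acids, was higher in 62 conditions, from 134 ± 58.2 CPM in Ctrl to 1508 ± 190 with LPS.

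Tbxas1, thromboxane A synthase, which uses the same prostaglandin H2 as Ptges, fell from 364 ± 83.1 CPM in Ctrl to 57.1 ± 16 with PAM (log2 -2.60, adjusted p = 1.44e-12, edgeR) and was called lower in 57 conditions. Cbr3, a carbonyl reductase, was lower in 48, a count that was 20 without Ctrl replicate 1 and 13 without replicate 1 of every group. Of 12 other genes of leukotriene synthesis, export and breakdown, 5 were tested. Of these, 2 were lower in over 31 conditions, and the other 3 (Dpep2, Abcc1 and Cyp4f18) in 21, 6 and 1, with Abcc1 also higher in 3, these being named after their values were seen. Of 8 prostanoid receptor genes, tests covered 2, and 1 of these was called lower in some condition. None of 6 other lipoxygenase genes and none of 5 leukotriene receptor genes passed the filter.

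The genes whose group means were most like each member over 64 groups were named by Pearson r on log2 CPM among 4500 genes. By Spearman's rho, 8 of the 18 genes named as most like a member stayed among its 3 most like. These are descriptions, since groups share ligands and genes share libraries. For Ptgs2 they were Il1a (0.96), Srgn (0.93) and Socs3 (0.92), with Ctsd least like it (-0.89). For Ptges they were Il1a (0.91), Cybb (0.90) and Nfkbia (0.89), with Psap least like it (-0.85). Values were lower for the members that fell: Gpx1 (0.76), Trem2 (0.75) and Rcbtb2 (0.71) for Ptgs1, Gpx1 (0.76), Cfp (0.73) and Ccl6 (0.72) for Alox5ap, and Cotl1 (0.75), Sept9 (0.74) and Cd300a (0.72) for Lta4h. Cotl1 encodes a coactosin-like protein known to bind 5-lipoxygenase and was itself in the leukotriene list. Pla2g7 had no gene above 0.61 (Clec5a, then Ccdc88b at 0.61 and Zeb2 at 0.58). Least like them were Ms4a6d for Ptgs1 (-0.77), Nfkbiz for Alox5ap (-0.70), Traf1 for Lta4h (-0.76) and Tnip3 for Pla2g7 (-0.60). Ptgs1 and Ptgs2 had an r of -0.62 with each other.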

How the data were processed

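RNA of 64 groups of 3 mouse dendritic cell samples was sequenced, and the authors deposited 1 table of UMI counts per gene, not normalized. Per the submitters' processing notes, BWA 0.7.15 and the mm10 build were used; how UMIs were collapsed, the annotation and the use of strand are not given in the sources used here. The 8 members and all gene lists were chosen with earlier results of these data known. Counts were fitted with edgeR 4.0.16 in R 4.3.3: genes were filtered by filterByExpr, which left 4720 of 23481, libraries were scaled by TMM, 1 quasi-likelihood fit covered all 64 groups without covariates, and p-values were adjusted by Benjamini-Hochberg within each contrast. The rules for calls are given in the report. The 46564 to 610234 UMIs per library limit what can be seen for genes of a few UMIs, and the binomial and Poisson intervals cover counting error only. The script was tested on simulated counts with known changes. No 2 libraries were identical.

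Genes named besides the members were, of the other eicosanoid genes, the 4 called in most comparisons in each direction, and for each tested member the 3 genes most like it and the 1 least like it, by Pearson r of log2(group mean CPM + 1) leaving out genes that averaged under 20 CPM. Conditions named were the single ligands, the 3 highest and 3 lowest groups and, of the calls beyond single ligands or pairs, the largest 4 with their values. Promoter windows come from RefSeq and gene positions from GENCODE M21, both on GRCm38. Alternatives were RLE scaling, library size alone, no filter on low counts, a replicate block, leaving out replicates, thinning to equal totals, adjustment over all contrasts together, no fold threshold, DESeq2 1.42.0 for the comparisons with Ctrl, single ligand and Ctrl libraries alone, no Ctrl background, and for likeness Spearman's rho or no Ctrl. Leaving out replicates for the cyclooxygenase share was added after the data were seen. The replicate numbers did not pair the libraries: deviations of same-numbered libraries had a median r of 0.0074.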

Additional observations from a re-analysis of the deposited data

Results flagged for a closer look

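The effect of a ligand on a member differed with and without a second ligand in 8 of 126 tests of the difference itself, each the log2 change of the pair less the summed log2 changes of its ligands alone (edgeR, adjusted p under 0.05). Ptges, the prostaglandin E synthase, had interactions of -2.55 for PAM with CpGB, -2.34 for PAM with Zymosan, -2.22 for PAM with LPS and -2.01 for LPS with CpGB. Ptgs2 had -3.43 for PAM with CpGB and -2.07 for LPS with CpGB. Alox5ap, the 5-lipoxygenase activating protein, had 1.61 for PAM with LPS and 1.56 for PAM with CpGB. The 6 negative and 2 positive calls are shares close to the 3.5% and 1.08% over all genes and pairs, and 7 of the 8 were lost when at least 1 replicate number was left out, the Ptgs2 interaction of PAM with CpGB being the exception.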

How the results depend on the processing

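Depth limits what can be said of Ctrl, with 5 UMIs each for Ptgs2 and Ptges, and of Alox5 and Ltc4s. Of 100 tested values of members, 45 were called, and 14 of these lost their call under at least 1 alternative. Signs changed 61 times, for 21 values, of which 0 were called with either sign. The causes were not tested, except that fewer or other genes were tested after thinning and without the filter.

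The replicate block gave 57 conditions higher for Ptgs2, 51 for Ptges, and 61 lower for Ptgs1, 20 for Alox5ap and 18 for Lta4h, and it ended or added no call among the 100 values.

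The 19 conditions with lower Alox5ap became 40 with RLE size factors, 50 with library size alone, 9 without the filter, 41 after thinning, 42 with DESeq2, 44 without the fold threshold, and 1 to 43 when a replicate was left out. The 19 with lower Lta4h became 34 with library size alone, 5 without the filter, and 1 to 17 when a replicate was left out. Pla2g7 was higher in 15 without the fold threshold and in 1 without the filter. Calls on adding a ligand went from 8 to 14 higher and from 5 to 12 lower without the fold threshold. After thinning, Ptgs1 and Lta4h did not pass the filter and have no value, 0 members were lower on adding a ligand, and 5 rather than 11 other eicosanoid genes were higher in any condition. Positive pair interactions went from 2 to 1 both without the filter and after thinning, and to 0 to 3 when a replicate was left out. Negative ones went from 6 to 2 after thinning and to 2 to 5 when a replicate was left out. Under Spearman's rho, 8 of 18 named genes stayed among the 3 most like their member.

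Log2 values that changed sign were, without the Ctrl background, 0.016 for Alox5ap on adding SeV and -0.0029 for Pla2g7 on adding PAM. With RLE size factors they were -0.070 for Ptges with SeV, and on adding a ligand -0.0078 for Alox5ap with Zymosan, -0.024 for Pla2g7 with PAM and -0.0022 with SeV. Library size alone gave -0.14 for Ptges with SeV and -0.028 with cGAMP, and on adding a ligand -0.034 for Alox5ap with Zymosan and -0.11, -0.051 and -0.024 for Pla2g7 with PAM, SeV and cGAMP. Without the filter they were 0.042 for Ptgs2 and 0.035 for Ptges with HMW, 0.048 for Alox5ap with Zymosan, 0.20 for Pla2g7 with LPS, and 0.011 for Alox5ap on adding SeV. Thinning gave -0.31 and -0.27 for Ptgs2 with SeV and cGAMP, -1.30 for Ptges with SeV, and on adding a ligand -0.045 and -0.065 for Alox5ap with HMW and Zymosan and -0.12 and -0.014 for Pla2g7 with PAM and SeV. DESeq2 gave -0.069 for Ptges with SeV.

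When a replicate was left out, differences from Ctrl that changed sign ran from -0.58 to 0.44 for Ptgs2 with HMW, -0.54 to 0.46 for Ptges with HMW, -0.18 to 0.67 with SeV and -0.065 to 0.82 with cGAMP. For Alox5ap they ran from -0.13 to 0.52 with HMW, -0.47 to 0.47 with Zymosan, -0.67 to 0.14 with SeV and -0.84 to 0.15 with cGAMP, for Lta4h with SeV from -0.93 to 0.28, and for Pla2g7 with LPS from -0.071 to 0.094. On adding a ligand, Ptgs1 ran from -0.24 to 0.027 with HMW, -0.36 to 0.22 with Zymosan and -0.37 to 0.067 with SeV, Alox5ap from -0.045 to 0.084 with Zymosan and -0.082 to 0.051 with SeV, and Pla2g7 with PAM from -0.0012 to 0.023.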
